A study of Mus musculus with 8 samples.

Results

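Nuclear receptors are transcription factors, many of which are switched by a small ligand such as a steroid, a retinoid, a thyroid hormone or a lipid. Their zinc finger domain binds short half-sites in DNA, mostly as pairs, and many of them bind as a heterodimer with a retinoid X receptor. Without ligand several of them hold corepressors such as NCOR1, and with ligand they recruit the p160 coactivators NCOA1 to NCOA3, which bring in histone acetyltransferases. ATAD2, a chromatin ATPase with a bromodomain, is known as a coactivator of steroid receptors, and in skeletal muscle receptors of this class set the balance of growth, clock timing and fuel use.

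The 39 genes described here were chosen by symbol: 34 nuclear receptor genes and 5 coregulator genes, of 35976 genes in the deposited table. RNA came from C2C12 cells, an established mouse myoblast line, in 8 libraries. Cells of 4 libraries carried a non-targeting shRNA, and those of the other 4 an shRNA against Atad2, and all were lysed 48 h after transfection. The labels do not say how many shRNA sequences were used, or whether each library was its own culture, and the p-values therefore cover the spread among these 8 libraries, which may be technical.

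Depth, read back from the deposited values, was 61.4 to 73.0 Mreads (megareads) in the control libraries and 50.3 to 72.3 Mreads in the Atad2 libraries. At that depth 3 reads, taken as the floor for a gene without reads, correspond to 0.0411 to 0.0596 RPM (reads of a gene, scaled by the depth of its library), a limit that covers counting error only. The targeted gene Atad2 (chromosome 15, 58094044 to 58135525, GRCm38) stood at 14.67 ± 0.06 on the log2(normalized count + 1) scale in the controls and at 11.93 ± 0.14 in the Atad2 libraries (SD, n = 4 each), 6.66-fold lower (two-sided exact permutation p = 0.0286, the smallest that 4 against 4 libraries can give). The second principal component, with 8.29% of the variance, set Atad2 replicate 3 apart, which was also the shallowest library. All 6 listed myoblast markers were detected, with summed levels of 9905 to 10298 RPM in the controls and 9907 to 10106 RPM after the knockdown, most of it Vim. Of these 6, Myf5, Cdh15 and Chrna1 fell by 1.28, 0.96 and 0.25 on the log2 scale, Des and Myod1 rose by 0.38 and 0.25, and Vim did not pass. The 7 markers of differentiated muscle summed to 11.9 to 15.2 RPM in the controls and 71.5 to 91.0 RPM in the Atad2 libraries. Most of the latter was Ttn, with 274 to 303 reads in the controls and 3283 to 4848 after the knockdown. Myh3, Mylpf, Tnnt3 and Myog also rose, by 5.44, 2.83, 2.33 and 2.15. Acta1 did not pass (-0.09), and Ckm had at most 8 reads in any library. Adipoq, Lep and Cfd of the 5 adipocyte markers had no read in any library, and neither had Adgre1, Tyrobp, Tie1 or Epcam of the leukocyte, endothelial and epithelial lists. The 5 leukocyte markers summed to 3.91 to 4.88 RPM in the controls and 8.30 to 10.5 RPM in the Atad2 libraries, the 4 osteoblast markers to 0.315 to 0.456 and 1.11 to 2.07 RPM, the 4 endothelial markers to 0.228 to 0.50 and 0.179 to 0.540 RPM, and the 4 epithelial markers, led by Krt14, to 70.6 to 74.0 and 28.0 to 32.6 RPM. Among the leukocyte markers Cd68 rose by 1.17, Csf1r did not pass, and Ptprc had at most 4 reads in any library. Among the osteoblast markers Sp7 rose by 3.17, while Bglap, Ibsp and Alpl had at most 28 reads in any library. The part of these marker shifts in the receptor results was not tested.

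Upstream sequences are shown for 5 of the 11 genes that were called at 1.5-fold or more, because nuclear receptors are known to control each other's genes. They were picked after their values were seen, Rarb for the repeat described below and the others as examples of both directions. They cover the 250 bases before a RefSeq gene start on GRCm38.p6, written 5′ to 3′ on the gene's strand, and capitals mark the half-site AGGTCA on either strand. The variant AGTTCA is also in capitals. So is a further variant that retinoic acid elements use, GGTTCA. Of 39 members 35 had an entry, with 54 starts in all (none for Ncoa2, Ncoa3, Nr3c1 and Thra). Rarb, the retinoic acid receptor beta gene, is shown at chr14:16575477-16575726 (minus strand), before a start that lies within the gene's full span. Rorb is shown at both of its listed starts, chr19:19111197-19111446 and chr19:19001118-19001367 (minus strand). Rxra is shown at the later of its listed starts, chr2:27709042-27709291 (plus strand), Vdr at chr15:97908297-97908546 and Nrip1 at chr16:76373828-76374077 (both minus strand). Of Rxra and Nrip1, starts whose window held no half-site are left out.
Rarb: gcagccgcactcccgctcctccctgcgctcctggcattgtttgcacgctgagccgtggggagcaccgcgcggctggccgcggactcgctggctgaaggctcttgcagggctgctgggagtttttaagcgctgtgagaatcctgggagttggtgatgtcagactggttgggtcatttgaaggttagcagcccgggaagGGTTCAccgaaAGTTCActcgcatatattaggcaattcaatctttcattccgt
Rorb, first start: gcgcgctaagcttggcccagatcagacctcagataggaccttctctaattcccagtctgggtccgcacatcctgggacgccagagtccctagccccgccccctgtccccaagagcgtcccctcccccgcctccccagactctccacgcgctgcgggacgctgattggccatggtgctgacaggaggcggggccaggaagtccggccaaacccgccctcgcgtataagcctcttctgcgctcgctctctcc
Rorb, second start: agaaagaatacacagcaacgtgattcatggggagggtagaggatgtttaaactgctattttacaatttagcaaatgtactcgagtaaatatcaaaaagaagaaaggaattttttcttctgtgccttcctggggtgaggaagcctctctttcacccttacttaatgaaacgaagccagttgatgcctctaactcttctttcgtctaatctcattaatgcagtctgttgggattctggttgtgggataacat
Rxra: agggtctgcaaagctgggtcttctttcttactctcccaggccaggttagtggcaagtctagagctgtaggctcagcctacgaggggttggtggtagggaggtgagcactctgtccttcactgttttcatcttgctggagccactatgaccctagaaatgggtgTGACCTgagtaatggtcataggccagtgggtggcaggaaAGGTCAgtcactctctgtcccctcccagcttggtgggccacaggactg
Vdr: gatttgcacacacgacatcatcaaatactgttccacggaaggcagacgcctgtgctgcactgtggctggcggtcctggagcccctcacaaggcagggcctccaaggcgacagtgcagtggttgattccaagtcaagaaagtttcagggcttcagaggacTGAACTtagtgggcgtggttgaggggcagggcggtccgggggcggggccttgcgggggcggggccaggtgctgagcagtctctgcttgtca
Nrip1: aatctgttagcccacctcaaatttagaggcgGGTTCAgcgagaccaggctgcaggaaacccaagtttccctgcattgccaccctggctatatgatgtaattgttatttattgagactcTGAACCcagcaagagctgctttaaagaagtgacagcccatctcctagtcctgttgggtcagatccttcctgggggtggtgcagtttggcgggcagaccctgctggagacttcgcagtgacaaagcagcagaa

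The Rarb sequence held the only direct repeat found at the members' starts, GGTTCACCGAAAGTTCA, in which 5 bases separate both half-sites. It lay 53 to 37 bases upstream of the start, and this spacing is the textbook arrangement of a retinoic acid response element. A direct repeat of these half-sites with a spacer of 0 to 5 bases, overlapping matches included, was present in 0.454% of the 32851 windows of the table. Single half-sites were common. At least 1 of the 3 was present in 35.2% of the members' windows and 30.7% of all windows. The first of them was found in 16.7% of the members' windows against 14.0% of all, the variant AGTTCA in 14.8% against 11.8%, and the last in 11.1% against 8.85%. Neither Rorb window held a match.

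Most of the receptor genes that the myoblasts expressed changed after the knockdown, in both directions. Of 39 members, 35 passed the filter on low values (a mean above 3 on the log2 scale), and each of these 35 was above 3 in both groups. Among them 15 rose, 12 fell and 8 did not pass the test (limma, Benjamini-Hochberg adjusted p under 0.05 over all 14703 genes tested). Over all genes tested, 30.8% rose and 29.6% fell, 60.4% in all, beside 27 of 35 members. The median log2 fold change, Atad2 over control, was 0.04 for the 35 members and -0.01 for all genes. With reads scaled to the library total in place of the deposited size factors, 3295 genes rose and 5462 fell over the whole table in place of 4528 and 4352, and 15 members rose and 15 fell. In bulk RNA, fewer cells of a type and less RNA per cell cannot be told apart.

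Direction differed with the level of expression. Between 11 and 13 on the log2 scale lay 17 members, of which 11 rose and 5 fell, beside 46.9% and 22.3% of all genes at that level. At 3 to 9 lay 7 members, of which 1 rose and 4 fell, while of all genes 5.51% rose and 27.4% fell at 3 to 5, 9.79% and 42.7% at 5 to 7, and 15.04% and 45.2% at 7 to 9. For 28 of the 35 members the control and Atad2 values were fully apart, against 53.5% of all genes tested. A change of at least 1.5-fold was called for 4 higher and 7 lower members, against 5.45% and 14.1% of all genes, and a 2-fold decrease for 4 members (8.61% of all genes) and a 2-fold increase for 0 (2.52% of all genes). The 4 members that fell by 2-fold or more were Rorb, Rarb, Ppara and Esr1, each of which had a more abundant relative in its family.

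**Figure D1:**
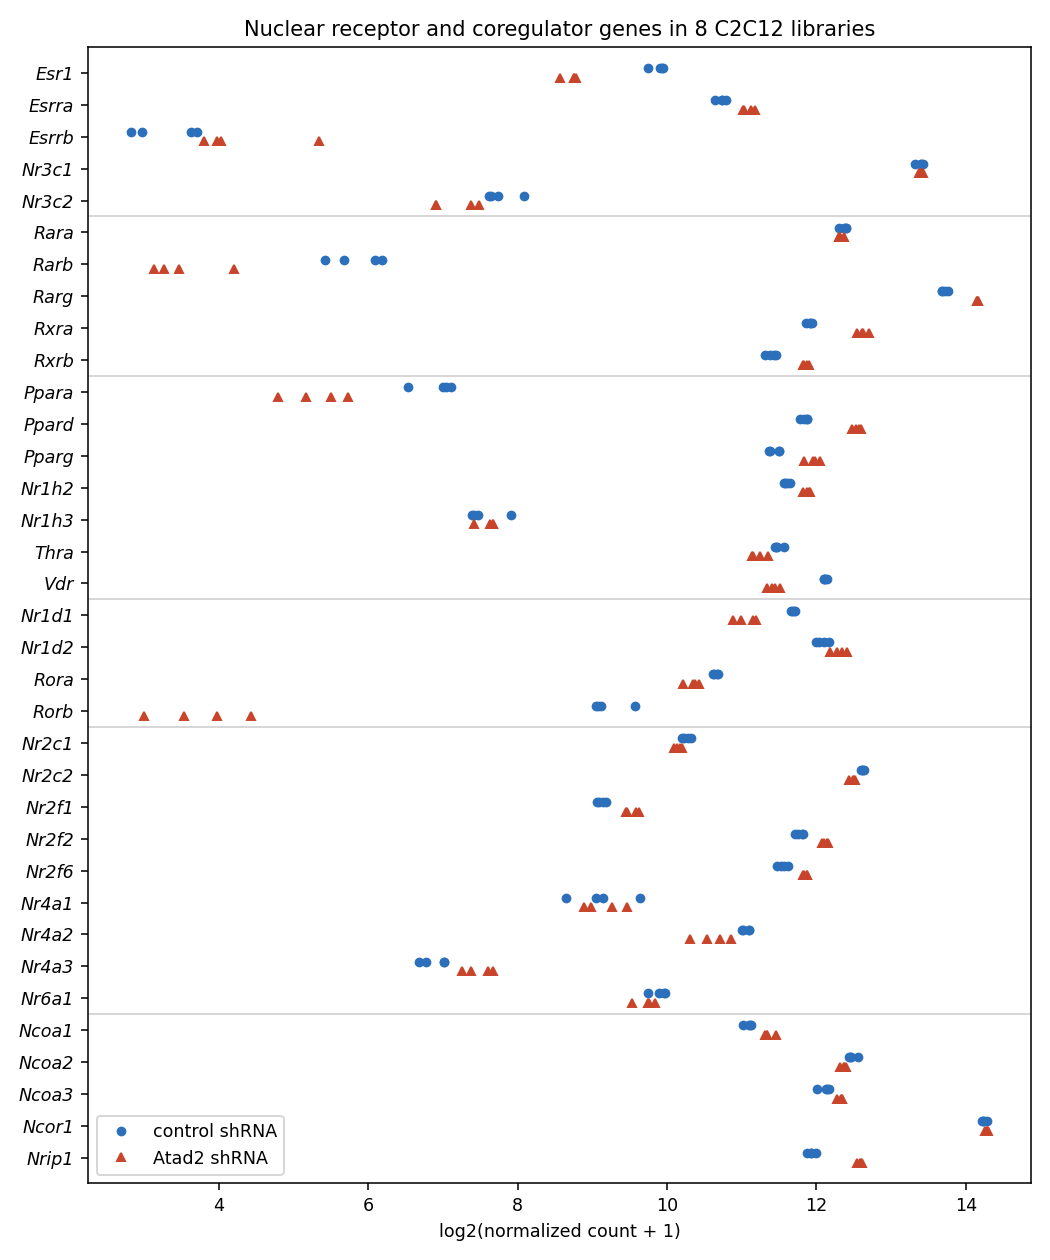
Each row is 1 of the 35 genes that passed the filter, and the horizontal axis is the log2(normalized count + 1) level. Circles are the 4 control shRNA libraries and triangles the 4 Atad2 shRNA libraries, and grey lines separate the roles. The widest gap is that of Rorb, from 9.20 ± 0.25 to 3.73 ± 0.62, while Nr3c1 and Ncor1 overlap.

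**Figure D2:**
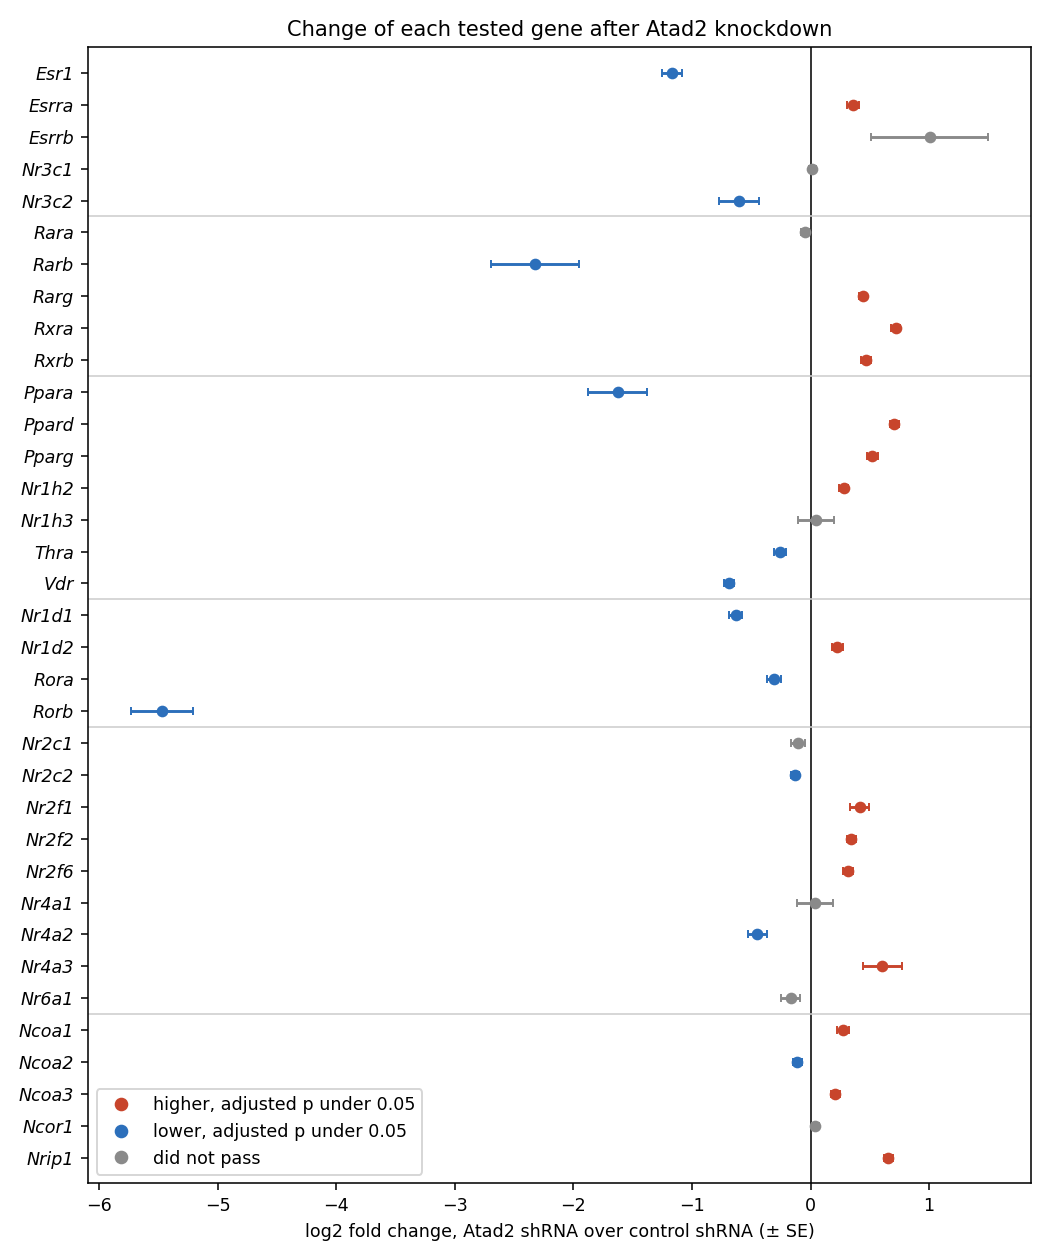
Points give the log2 fold change of Atad2 shRNA over control shRNA with its standard error for the same 35 genes, and colour marks the test at an adjusted p under 0.05. Rorb, Rarb, Ppara and Esr1 lie below -1, and the largest called increase is that of Rxra at 0.72 ± 0.04.

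Among the steroid and oestrogen-related receptors, Esr1 and Nr3c2 fell, Esrra rose and the glucocorticoid receptor gene did not pass. Esr1 (chromosome 10, 4611989 to 5005633) encodes oestrogen receptor alpha. Its control values were 9.90, 9.94, 9.75 and 9.94, and it stood at 8.75, 8.78, 8.57 and 8.76 in the Atad2 libraries. The groups did not overlap, and within each group replicate 3 was the lowest. The log2 fold change was -1.17 ± 0.08 (SE, limma adjusted p = 1.3e-10), a 2.25-fold decrease, from 926 to 1156 reads to 294 to 470. Nr3c2, the mineralocorticoid receptor gene, stood at 7.73, 7.61, 7.64 and 8.08 in the controls and at 6.90, 6.90, 7.48 and 7.37 after the knockdown. Control replicate 4 was the highest and the highest Atad2 value lay just below the lowest control value. Its fold change of -0.60 ± 0.17 (limma adjusted p = 0.0045) lost the call with quantile normalization (-0.22, limma adjusted p = 0.265) and with cyclic loess (-0.30, 0.129; range over 19 alternatives 0.00179 to 0.265).

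Esrra encodes the oestrogen-related receptor alpha, an orphan receptor that works with PGC-1 coactivators on mitochondrial genes. It rose by 0.36 ± 0.05, from 10.73 ± 0.06 to 11.09 ± 0.08. Nr3c1, the glucocorticoid receptor gene, was by far the most abundant steroid receptor gene of this set and had levels of 13.39 ± 0.04 and 13.40 ± 0.02 that overlapped (0.01 ± 0.03, limma adjusted p = 0.71, range over 19 alternatives 0.015 to 0.888). Its sign depended on scaling, and with cyclic loess (-0.09, limma adjusted p = 0.015) and quantile normalization (-0.08, 0.038) it was called lower. Esrrb was close to the detection limit, with 12, 6, 13 and 8 reads in the controls and 16, 16, 10 and 34 after the knockdown. The normalized values of the groups did not overlap, and the difference of 1.00 ± 0.49 did not pass (limma adjusted p = 0.086, range over 18 alternatives 0.0077 to 0.299). It passed with quantile normalization (1.62, limma adjusted p = 0.0077) and cyclic loess (1.604, 0.0085). Pgr, the progesterone receptor gene, had 5 reads in control replicate 3 and 0 in the other 7 libraries.

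Per length the same order held. In RPKM (RPM of recovered reads divided by the exon length in kilobases), Nr3c1 lay at 22.6 ± 0.7 in the controls, Esrra at 6.26 ± 0.24 and Esr1 at 1.12 ± 0.06. Of the summed level of Esr1, Esrra and Esrrb, Esr1 made up 15.1% ± 0.3 in the controls and 5.80% ± 0.28 after the knockdown, ranges of 14.7 to 15.5% and 5.54 to 6.14%.

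The retinoid receptors split within the RAR family, whereas both detected RXR genes rose. Rarg (chromosome 15, 102234938 to 102257522), the retinoic acid receptor gamma gene, was the most abundant gene of the whole set at 51.1 ± 1.3 RPKM in the controls, and rose by 0.44 ± 0.03 on the log2 scale (limma adjusted p = 6.7e-11). Rara, the alpha gene, had levels of 12.37 ± 0.04 and 12.32 ± 0.03 that overlapped (-0.05 ± 0.04, limma adjusted p = 0.255, range over 19 alternatives 0.0023 to 0.413), and was called lower with quantile normalization (-0.14, limma adjusted p = 0.0023), cyclic loess (-0.14, 0.0025) and total read scaling (-0.12, 0.0050). Rarb (chromosome 14, 16430839 to 17082331), whose upstream repeat is printed above, is known as a gene that retinoic acid itself induces. It had 71, 71, 45 and 59 reads in the controls and 11, 9, 6 and 15 after the knockdown. On the log2 scale these were 6.08, 6.18, 5.42 and 5.67 against 3.47, 3.26, 3.12 and 4.20. Every Atad2 library lay well below every control library, and the fold change was -2.33 ± 0.37 (limma adjusted p = 1.6e-05). Of the exon bases of Rarb, 34.1% overlap those of Top2b on the other strand. Top2b, a topoisomerase gene, had 12250 to 14308 reads in control libraries and 10240 to 13640 in the others, and its level did not pass (0.05 ± 0.03). The library kit marks strand, but without the strand setting of the counting, reads of both genes cannot be told apart over those bases.

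Rxra encodes the retinoid X receptor alpha, the shared partner of many receptors of this set. It stood at 11.91, 11.86, 11.91 and 11.94 in the controls and at 12.62, 12.63, 12.55 and 12.71 after the knockdown. All 4 Atad2 libraries were higher, with a fold change of 0.72 ± 0.04 (limma adjusted p = 1.3e-12). Rxrb rose by 0.46 ± 0.04, from 11.39 ± 0.06 to 11.86 ± 0.04. Rxrg had 1 read in control replicate 3 and none elsewhere. The RXR sum per length was 22.3 ± 0.6 RPKM in the controls and 32.1 ± 0.7 after the knockdown, of which Rxra made up 50.9% ± 0.7 and 55.3% ± 1.7. RPKM uses the library total, on which the Atad2 libraries sit 0.08 lower on the log2 scale than with the deposited size factors. The RAR sum was 70.9 ± 1.6 and 83.7 ± 1.4 RPKM, with Rarg at 72.1% ± 0.6 and 78.5% ± 0.3 of it. Over all 34 receptor genes Rarg alone held 19.1% ± 0.4 of the summed RPKM in the controls and 22.8% ± 0.3 after the knockdown.

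Among the lipid-sensing receptors, both abundant PPAR genes rose and the third fell. Ppard, the delta gene, the main PPAR of muscle, stood at 11.83, 11.78, 11.88 and 11.87 in the controls and at 12.60, 12.54, 12.58 and 12.47 in the Atad2 libraries. No values overlapped, and the fold change was 0.70 ± 0.04 (limma adjusted p = 2.0e-12). Pparg, better known as the master regulator of fat cells, rose by 0.52 ± 0.05, from 11.43 ± 0.08 to 11.96 ± 0.09. It was the most abundant PPAR gene per length, at 15.2 ± 0.85 RPKM in the controls, in libraries with no read of Adipoq, Lep or Cfd. Ppara, the alpha gene of fatty acid oxidation, stood at 7.10, 6.53, 7.00 and 7.04 in the controls and at 5.73, 5.49, 5.16 and 4.79 after the knockdown, from 91 to 154 reads to 23 to 57. Its fold change was -1.63 ± 0.25 (limma adjusted p = 1.0e-05). Its share of the summed PPAR level went from 2.17% ± 0.34 to 0.473% ± 0.114.

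The liver X receptors sense oxysterols. Nr1h2, the beta gene, rose by 0.28 ± 0.04 and made up 92.5% ± 1.3 of their sum in the controls. Nr1h3, the alpha gene, stood at 7.55 ± 0.25 and 7.59 ± 0.12 and did not pass (0.05 ± 0.15, limma adjusted p = 0.80, range over 19 alternatives 0.029 to 0.987). It passed as higher with quantile normalization (0.41, limma adjusted p = 0.029), and its sign turned without control replicate 4 and with total read scaling.

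The hormone receptors Vdr and Thra fell. Vdr (chromosome 15, 97854427 to 97908296), the vitamin D receptor gene, stood at 12.14, 12.12, 12.10 and 12.11 in the controls. After the knockdown it stood at 11.45, 11.40, 11.34 and 11.51. The control values lay close together, well above the highest Atad2 value. The fold change was -0.69 ± 0.04 (limma adjusted p = 1.1e-11). Per length Vdr ranked 10 of 39 in the controls and 18 of 39 after the knockdown. Thra, the thyroid hormone receptor alpha gene, fell by 0.26 ± 0.05, from 11.48 ± 0.05 to 11.22 ± 0.10. Thrb had 1 read in control replicate 2 and 1 in Atad2 replicate 4, so a beta form was not detectable above the floor at this depth.

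Of the 4 clock-linked receptor genes 3 fell and 1 rose, while 29.6% of all genes tested fell and 30.8% rose. Rorb among these 4 had the largest fold change of the 35 genes tested. REV-ERB proteins, from Nr1d1 and Nr1d2, repress and ROR proteins activate through the same DNA element, and together they time Arntl, the gene of BMAL1. Rorb (chromosome 19, 18930609 to 19111196), known mostly from neural tissue, stood at 9.04, 9.57, 9.08 and 9.12 in the controls and at 3.96, 3.53, 4.43 and 2.99 in the Atad2 libraries. In reads these were 560, 755, 581 and 653 against 16, 11, 16 and 6. Control replicate 2 was the highest and Atad2 replicate 4 the lowest, and no value of one group came near the other. The fold change was -5.47 ± 0.26 (limma adjusted p = 2.1e-13), 44.4-fold lower on this scale. Rora, its paralog, fell by 0.31 ± 0.06, from 10.65 ± 0.03 to 10.34 ± 0.09. The summed ROR level went from 2.86 ± 0.14 to 1.54 ± 0.09 RPKM, and the share of Rorb in it from 30.3% ± 4.1 to 1.17% ± 0.51.

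The REV-ERB pair moved apart. Nr1d1 (chromosome 11, 98767932 to 98775377) stood at 11.71, 11.68, 11.65 and 11.70 in the controls and at 11.20, 11.15, 10.98 and 10.89 after the knockdown. The control libraries lay close together and the Atad2 libraries were spread over a wider range, all below them (-0.63 ± 0.06, limma adjusted p = 4.5e-09). Nr1d2 rose by 0.23 ± 0.05, from 12.07 ± 0.08 to 12.30 ± 0.10, and by 0.14 to 0.15 with quantile normalization, cyclic loess and total read scaling. Nr1d1 was the larger part of the REV-ERB sum in the controls (57.3% ± 1.7) and the smaller part in the Atad2 libraries (42.6% ± 2.0). Nr1d1 and Thra are tail-to-tail neighbours on opposite strands and share 263 exon bases, 8.55% of those of Nr1d1 and 5.70% of those of Thra, over which their reads cannot be told apart here. Both fell.

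**Figure D3:**
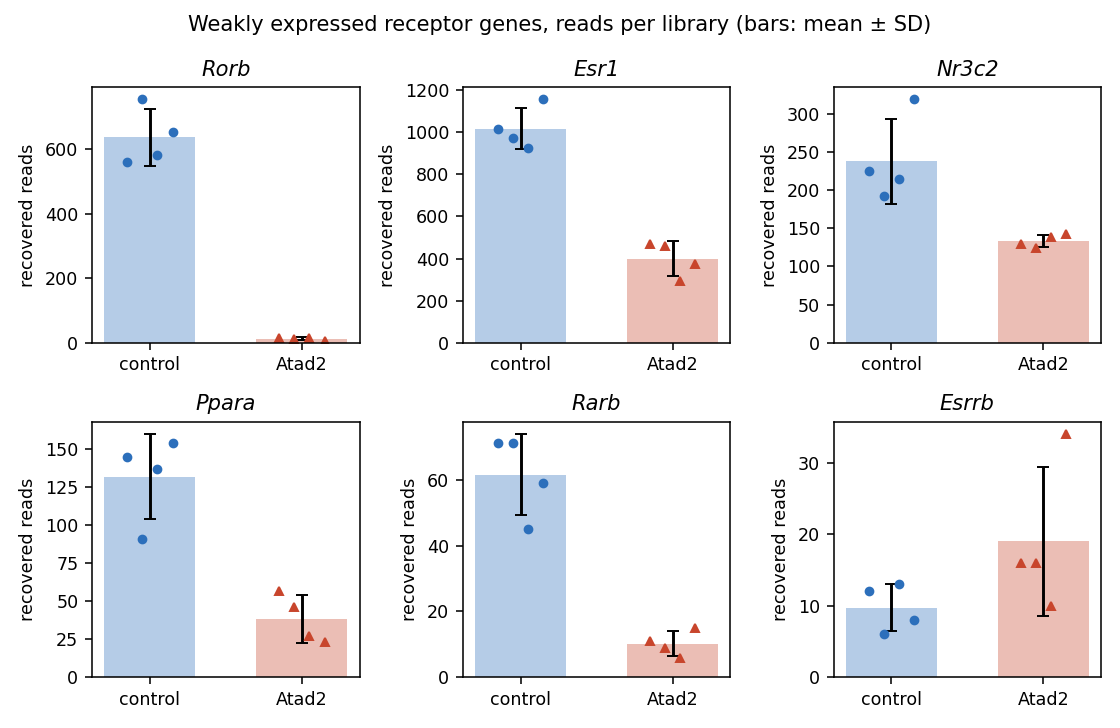
Panels show reads per library, not corrected for depth, for 5 weakly expressed receptor genes that fell and for Esrrb, with the control libraries on the left and the Atad2 libraries on the right. Bars are means of 4 libraries, whiskers SDs, points single libraries. Rorb drops from 560 to 755 reads to 6 to 16, and the highest point of Esrrb is the 34 reads of Atad2 replicate 4.

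**Figure D4:**
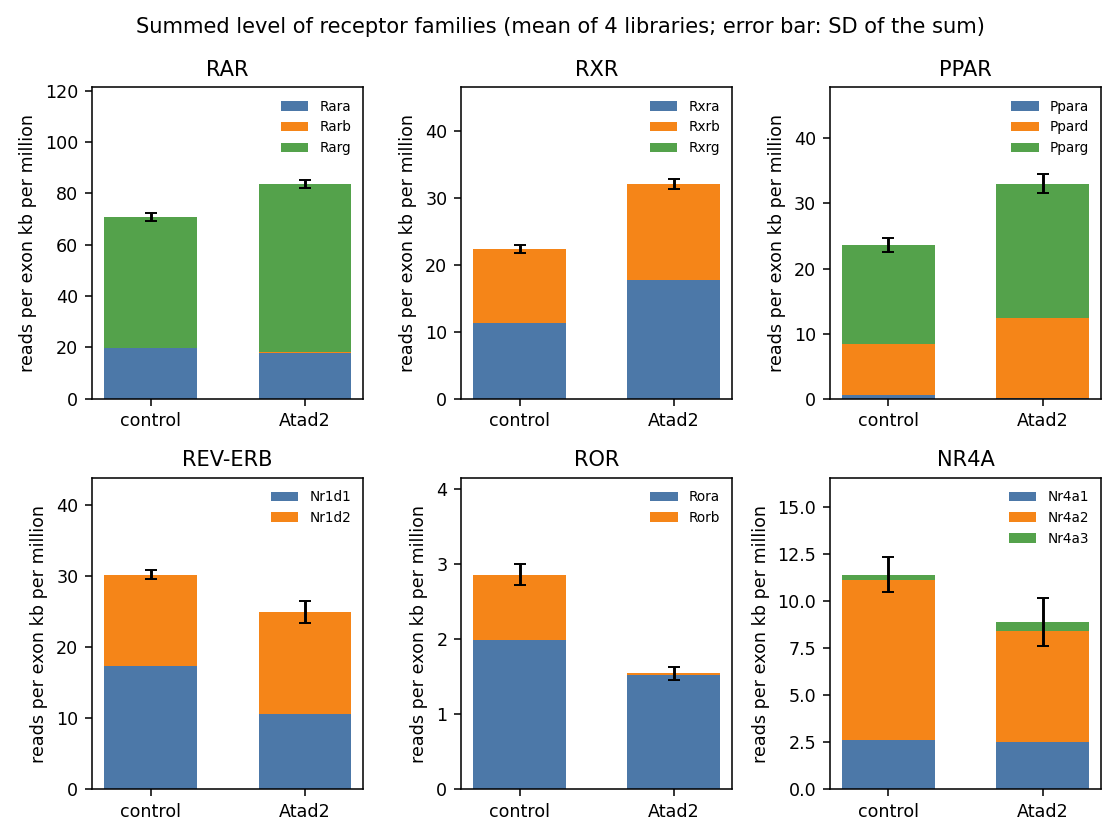
Stacked bars give each gene's mean level, in RPKM, in 6 receptor families, and the whisker is the SD of the family sum over 4 libraries. The RXR and PPAR sums are higher in the Atad2 libraries, the ROR sum is lower with almost no Rorb, and the larger part of the REV-ERB sum passes from Nr1d1 to Nr1d2.

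The 5 genes whose 8 values were most like those of Rorb were Lgalsl, Suco, Hif1a, Foxp1 and Cd2ap, with Pearson correlations of 0.996 to 0.998 over 8 libraries. The search took the highest positive correlations, so the genes it returned had to be lower after the knockdown, as Rorb was. They fell by between 0.34 (Foxp1) and 4.17 (Lgalsl) on the log2 scale. The 8 values form 2 groups that lie far apart, so a gene with a tight enough decrease correlates highly. Of 14702 genes, 55 reached a correlation above 0.99.

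Among the orphan receptors, the COUP-TF genes rose as a family and the NR4A genes divided. COUP-TF proteins are mostly repressors that shape cell fate, and COUP-TFII, from Nr2f2, is known to restrain muscle differentiation. Nr2f1 rose by 0.42 ± 0.08, Nr2f2 by 0.34 ± 0.04 and Nr2f6 by 0.31 ± 0.04 (limma adjusted p at most 0.00012). Their shares of the family sum hardly moved, with Nr2f6 at 66.0% ± 1.2 and 65.3% ± 0.6. Of the exon bases of Nr2f6, 54.4% overlap Ocel1 on the other strand, and Ocel1 went the other way (-0.50 ± 0.09).

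NR4A genes are immediate early genes that need no ligand. Nr4a3 stood at 6.77, 6.68, 7.01 and 7.01 in the controls and at 7.25, 7.66, 7.60 and 7.38 after the knockdown. The groups were apart by a narrow gap, and the fold change was 0.60 ± 0.17 (limma adjusted p = 0.0035), rising to 1.00 with quantile normalization and 0.93 with cyclic loess. Nr4a2, the most abundant of the family, fell by 0.45 ± 0.08, from 11.05 ± 0.05 to 10.61 ± 0.24. Nr4a1 was spread widely within both groups, from 8.64 to 9.64 in the controls and from 8.88 to 9.47 after the knockdown, and did not pass (0.04 ± 0.15, limma adjusted p = 0.85). Nr4a2 was 74.5% ± 4.5 of the family sum per length in the controls and 66.6% ± 2.5 after the knockdown.

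The testicular receptor genes Nr2c1 and Nr2c2, which encode TR2 and TR4, moved little. Nr2c2 fell by 0.13 ± 0.03 (limma adjusted p = 0.0018), or by 0.21 to 0.23 with quantile normalization, cyclic loess and total read scaling. Mrps25, which covers 30.7% of its exon bases on the other strand, did not pass (0.03 ± 0.07). Nr2c1 (-0.11 ± 0.06, limma adjusted p = 0.119, over 19 alternatives 0.011 to 0.268) and the germ cell nuclear factor gene Nr6a1 (-0.17 ± 0.08, 0.067, over 19 alternatives 0.0093 to 0.301) did not pass. With total read scaling Nr2c1 was called lower (-0.19, limma adjusted p = 0.011). Nr6a1 was called lower with total read scaling (-0.25, limma adjusted p = 0.0093), without control replicate 3 (0.029) and without Atad2 replicate 1 (0.036). Nr5a2, the liver receptor homolog gene, had no read in any library.

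Among 5 coregulator genes, increases were called for 3 and a decrease for 1, and only Nrip1 among them changed by at least 1.5-fold. Over all genes tested 30.8% rose and 29.6% fell. At 11 to 13 on the log2 scale, the level of all of them but Ncor1, these shares were 46.9% and 22.3%. Nrip1 encodes RIP140, a corepressor that ligand-bound receptors recruit and that restrains oxidative metabolism in muscle and fat. It stood at 11.92, 11.87, 11.99 and 11.93 in the controls and at 12.55, 12.59, 12.59 and 12.62 in the Atad2 libraries. Both groups were tight and far apart, with a fold change of 0.66 ± 0.04 (limma adjusted p = 2.6e-12). Ncor1, the corepressor that binds receptors without ligand, was the second most abundant gene of the set at 24.5 ± 0.6 RPKM in the controls, next to Nr3c1 at 22.6 ± 0.7, and did not pass (0.04 ± 0.03, limma adjusted p = 0.255, range over 19 alternatives 0.023 to 0.437). Its sign turned with quantile normalization, cyclic loess and total read scaling, and with cyclic loess it was called lower (-0.08, limma adjusted p = 0.023).

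The p160 coactivator genes went in both directions. Ncoa1 rose by 0.27 ± 0.05 and Ncoa3 by 0.21 ± 0.04, the latter by 0.12 to 0.13 under quantile normalization, cyclic loess and total read scaling. Ncoa2 fell by 0.11 ± 0.04 (limma adjusted p = 0.012), a call that was lost without control replicate 3 (0.056, range over 19 alternatives 8.4e-05 to 0.056). The same 3 scalings gave -0.19 to -0.21 for Ncoa2. Per length Ncoa3 made up 47.6% ± 1.5 and 50.2% ± 0.8 of the p160 sum, and Ncoa2 30.9% ± 1.1 and 26.1% ± 0.7.

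Coregulator genes outside the set were also followed. Among 24 of them, 12 rose, 6 fell and 6 did not pass, which is 50% and 25% higher and lower. Over all genes tested 30.8% rose and 29.6% fell. At 11 to 13 on the log2 scale these shares were 46.9% and 22.3% of all genes, and above 13 they were 57.8% and 20.2%. Carm1, Ep300, Prmt1 and Ddx5 rose by 0.40, 0.33, 0.31 and 0.23 (SE 0.03 each). Ppargc1a, which encodes PGC-1 alpha, the coactivator of mitochondrial genes, fell by 2.22 ± 0.16, and Tbl1x, a subunit of the NCOR1 complex, fell by 0.38 ± 0.03. With quantile normalization, cyclic loess or total read scaling, 7 of these coregulator genes rose and 11 fell, and the increase of Ddx5 was 0.11 to 0.15. Prmt1 and Ep300 rose by 0.20 and 0.21 with cyclic loess.

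Ligand handling and targets were followed in 9 lists. Over all 11 lists, 1 of them of receptor genes outside the set, and without the members, 118 of 153 genes passed the filter, 36 rose, 38 fell and 44 did not pass, with a median log2 fold change of -0.01, as for all genes tested. Those that rose and fell were 30.5% and 32.2% of the genes tested in these lists, beside 30.8% and 29.6% of all genes tested. With total read scaling 27 rose and 53 fell. Of 9 tested retinoic acid receptor targets, 3 fell, 1 rose and 5 did not pass: Dhrs3, a retinal reductase gene, fell by 1.16 ± 0.10, Cyp26b1, whose product degrades retinoic acid, by 1.02 ± 0.13, and the third was Rarb itself. Crabp2, a carrier of retinoic acid, rose by 0.57 ± 0.11, and with quantile normalization or cyclic loess 4 targets rose (2 without control replicate 1). Of 22 tested genes of ligand supply and receptor chaperones, 7 rose, 5 fell and 10 did not pass. The retinaldehyde dehydrogenase gene Aldh1a3 rose by 1.30 ± 0.21, and the steroid receptor chaperone genes Ptges3, Hsp90aa1 and Fkbp4 rose by 0.39 ± 0.03, 0.32 ± 0.04 and 0.22 ± 0.03. With quantile normalization 12 genes of that list rose, and with a filter at a mean above 5, which tests fewer genes, 2 fell. Fkbp4 rose by 0.10 to 0.14 with quantile normalization, cyclic loess and total read scaling, and Hsp90aa1 by 0.21 with cyclic loess.

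The circadian list, which the REV-ERB and ROR receptors act on, held 15 tested genes, of which 6 fell, 2 rose and 7 did not pass. In percent, 40% fell and 13.3% rose, beside 29.6% and 30.8% of all genes tested. Per3 and Dbp fell by 0.56 ± 0.07 and 0.55 ± 0.08, Nfil3 by 0.28 ± 0.07 and Tef by 0.20 ± 0.04 (0.30 with quantile normalization), while Cry1 rose by 0.54 ± 0.06. The other that rose was Clock (0.09 ± 0.03, limma adjusted p = 0.0245). That call was lost without each of control replicates 1, 3 and 4 and of Atad2 replicates 1 and 2 in turn (limma adjusted p 0.0504 to 0.0888), without the intensity trend (0.0628), and with quantile normalization, cyclic loess and total read scaling (up to 0.871). From 1 to 4 genes of the list rose over all alternatives. Arntl did not pass.

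Targets of the lipid and steroid receptors went both ways within each list, as did all genes tested, of which 30.8% rose and 29.6% fell. Of 10 tested LXR targets, 2 rose and 5 fell. The cholesterol exporter genes Abca1 and Abcg1 moved apart (1.56 ± 0.09 and -2.47 ± 0.22), Apoe rose by 2.17 ± 0.18, and Pltp, Scd1 and Lpcat3 fell by 0.86 ± 0.07, 0.56 ± 0.04 and 0.25 ± 0.04. Of 13 tested PPAR targets, 2 rose and 5 fell. The lipid droplet gene Plin2 and Txnip each rose by 0.43, whereas the fatty acid oxidation genes Acadm, Acadl and Cpt1a fell by 0.71, 0.18 and 0.15 and Ucp2 by 0.36. With quantile normalization 4 rose, and Acadl and Cpt1a fell by 0.28 and 0.25. Of 11 tested glucocorticoid receptor targets, 3 rose and 5 fell. Errfi1 and Sgk1 rose by 1.097 ± 0.05 and 0.91 ± 0.04, and Dusp1, Cdkn1c, Mt2 and Tsc22d3 fell by 1.25 ± 0.06, 1.37 ± 0.28, 0.51 ± 0.04 and 0.30 ± 0.06 (Cdkn1c by 0.89 with quantile normalization).

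Of 8 tested oestrogen and progesterone receptor targets, 3 rose and 3 fell. The shares over all genes tested, for these and the next lists, were 30.8% and 29.6%. Greb1 rose by 1.70 ± 0.18, Ctsd by 0.88 ± 0.03 and the member Nrip1 is also on this list, while the chemokine gene Cxcl12 fell by 2.85 ± 0.05 and the cyclin gene Ccnd1 by 0.44 ± 0.04. Of 4 tested thyroid hormone and vitamin D receptor targets, Spp1 (osteopontin) and the corepressor gene Hr rose by 1.04 ± 0.04 and 0.98 ± 0.06, in the same libraries in which Vdr and Thra fell, and 2 did not pass. With quantile normalization, cyclic loess or total read scaling 1 of that list fell. Of 11 tested ERR targets of energy metabolism, 5 rose and 2 fell. Beside Esrra itself, Ndufs1 and Mdh2 rose by 0.12 and 0.11, and Acadm and Cox5b (-0.22 ± 0.04) fell. With quantile normalization and cyclic loess 1 of these rose and 4 fell, and with total read scaling 2 rose and 4 fell. The calls of Ndufs1 and Mdh2 were lost with quantile normalization, cyclic loess and total read scaling. With the first 2 the limma adjusted p was 0.571 to 0.658 for Ndufs1 and 0.958 to 0.989 for Mdh2. Mdh2 turned to -0.0023 with cyclic loess.

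**Figure D5:**
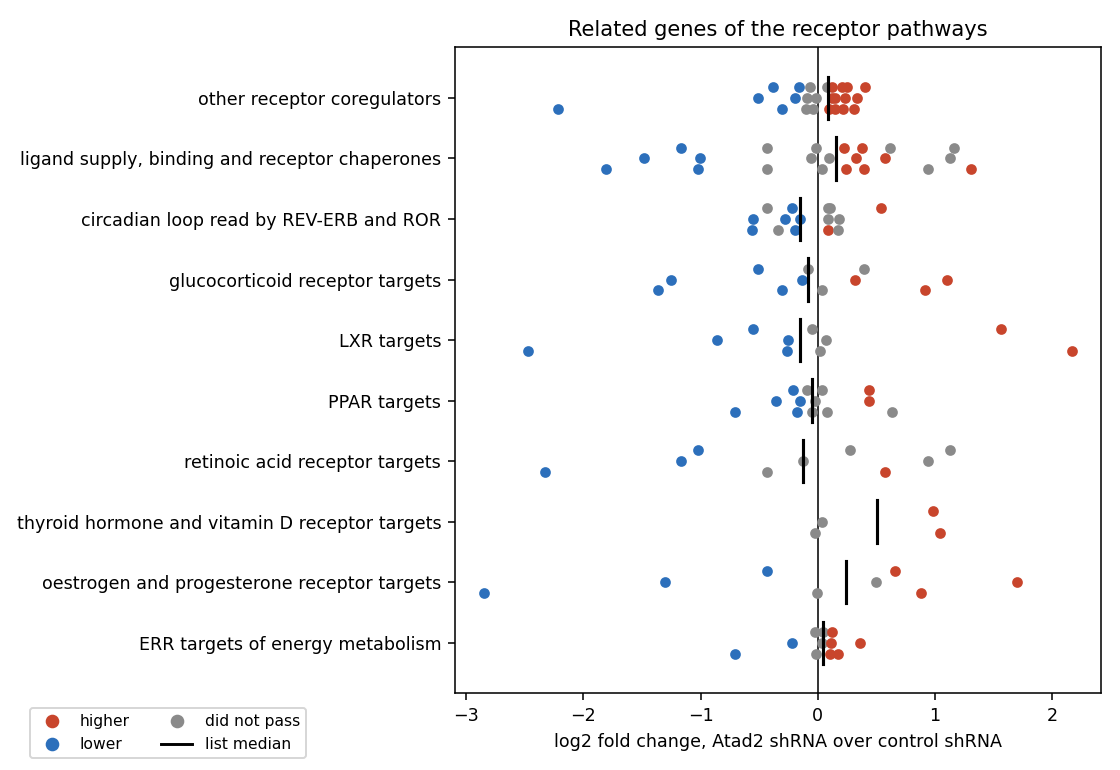
Each point is a tested gene of 1 of 10 lists, placed by its log2 fold change of Atad2 shRNA over control shRNA, with colour for the test at an adjusted p under 0.05 and a black bar at the list median. Points are offset vertically for visibility only. Most lists lie on both sides of 0, and the lowest point is Cxcl12 at -2.85.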

How the data were processed

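The authors deposited 1 table of 35976 genes in 8 columns, as log2(x + 1) values rounded to 3 decimals. Read from the values, x is a read count divided by a size factor per library: converted back, all values under 60 reads lay on whole multiples of 1 step (tolerance 0.1 reads, 100% in each library). Reads were recovered with that step, and high counts are approximate. The tools named, per the submitters' processing notes, are HTSeq 0.13.5, DESeq2 with no version, bcl2fastq 2.20 and SAMtools 1.1, and the build is mm10. Aligner, annotation and strand setting were not given in the sources used here.

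Genes with a mean above 3 entered 1 fit in R 4.3.3 with limma 3.58.1 (lmFit, eBayes with an intensity trend), two-sided, with Benjamini-Hochberg adjustment over 14703 genes and a threshold of 0.05. Fold changes are on the log2(normalized count + 1) scale, which understates changes of weak genes. RPKM used union exon lengths of GENCODE vM21 (GRCm38, the assembly of mm10), which gave all 39 members a length. Coordinates and upstream sequences are from RefSeq (GRCm38.p6). Tables were made with Python 3.11.15, pandas 2.3.3, NumPy 2.4.6 and SciPy 1.17.1, and plots with matplotlib 3.10.9.

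The members and all lists were chosen with earlier results of these data known. All members are named, with the 8 values for those called at 1.5-fold or more, and each list by its changed genes of lowest adjusted p, up to 4 in its commoner direction and up to 2 against it. Rorb was chosen for the likeness search because of its earlier result. All 157 list symbols were in the table, and some list genes are not reported here. The alternatives run were an offset of 8, median centring, a filter at a mean above 5 or none, quantile and cyclic loess normalization, no trend, a robust prior, limma-voom on recovered reads with TMM factors, the replicate block, leaving out each library and an adjusted p under 0.01. Total read scaling was added after seeing the data.

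Simulated counts for Atad2 against control shRNA (15057 genes tested) held 50 changed genes per size. Recovery was 74% at a log2 change of 0.25, 98% at 0.5, and 100% at 1 and at 2. The changed genes were drawn from those with a mean normalized count above 50, and no weaker gene was simulated as changed. Of 191 genes called, 2.62% were unchanged. Signs were random, all genes had the same dispersion, and the scaling of each library was taken as known. A response as wide as that of the data, and its dependence on scaling, were therefore not simulated. These rates may not carry over to the data.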

Additional observations from a re-analysis of the deposited data

Results flagged for a closer look

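In 6 of 70 groups of 4 values (8.57%), for 35 genes in 2 groups, 1 library stood far from the other 3, where chance alone gives about 1 in 20. Values are on the log2(normalized count + 1) scale. Esr1 in Atad2 replicate 3 was low, at 8.57 against 8.75 to 8.78 in the other Atad2 libraries. Esrrb in Atad2 replicate 4 was high, at 5.33 against 3.79 to 4.03. Ncoa3 in Atad2 replicate 4 was low, at 12.27 against 12.33 to 12.34. Among the controls, Nr1h3 was high in replicate 2 (7.92 against 7.39 to 7.47), and so was Rorb (9.57 against 9.04 to 9.12). Thra was high in control replicate 3, at 11.56 against 11.45 to 11.47. None of these values brought its gene's 2 groups to overlap except that of Nr1h3, whose groups also overlap without it.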

How the results depend on the processing

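Of the 27 called members, 25 kept their direction and their call under each alternative run for them, the exceptions being Nr3c2 and Ncoa2. There were 19 alternatives per gene, and 18 for Rarb and Esrrb, which a filter at a mean above 5 leaves out. Counts for all genes, members and related genes stayed within 1.5 times, and without single libraries 15 members rose in every case and 12 to 13 fell. Libraries of the same replicate number shared little deviation: deviations from the group means correlated at 0.034, -0.023, 0.021 and 0.011 for numbers 1 to 4. Such values cannot tell whether the libraries were prepared in pairs. With the replicate block 15 members rose and 13 fell (Nr6a1 added, limma adjusted p = 0.039), and 4562 and 4379 genes over the whole table. Direction turned for genes near 0. With quantile normalization these were Nr3c1 (-0.076), Ncor1 (-0.065) and Clock (-0.0067). With cyclic loess they were Nr3c1 (-0.092), Ncor1 (-0.077), Clock (-0.017) and Mdh2 (-0.0023), and with total read scaling Nr3c1 (-0.063), Nr1h3 (-0.029), Nr4a1 (-0.041) and Ncor1 (-0.039). Leaving out single libraries gave Nr4a1 from -0.12 to 0.21, Nr3c1 from -0.0068 to 0.026 and Nr1h3 from -0.0048 to 0.17. The cause of these turns was not tested. Depth limits Esrrb, Pgr, Rxrg, Thrb and Nr5a2, all at 34 reads or fewer per library. It also limits how closely the decreases of Rarb and Rorb are measured, with 6 to 15 and 6 to 16 reads in the Atad2 libraries. Genes with a read numbered 18845 to 18939 in the control libraries and 17544 to 17894 in the Atad2 libraries, a difference whose cause was not tested.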

Other observations

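The 3 receptor genes of each of 2 chromosome neighbourhoods belong to the same families. On chromosome 11, Thra (98740776 to 98769006), Nr1d1 and Rara (98927800 to 98974942) changed by -0.26, -0.63 and -0.05 on the log2 scale, the last of which did not pass. On chromosome 14, Rarb, Thrb (17659225 to 18040097) and Nr1d2 (18204056 to 18239106) gave a decrease of 2.33, no measurable level and an increase of 0.23.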
